A study of Mus musculus with 15 samples.

Results

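Sperm tRNA fragments (tRFs) of males fed an obesity-inducing diet (OID) were compared with those of sons of that lineage, to ask which fragments differed between the generations and which did not. The comparison took the 8 OID libraries out of 15 in the series, 4 from fathers (F0) and 4 from sons (F1). It covered all 47 tRFs of the table, every entry named by an amino acid and an anticodon. Entries for miRNAs and mature tRNAs were left out. All mice were C57BL/6 by the labels, of the substrain C57BL/6NTac by the study's methods. The OID fathers ate a lard-based diet for 7 weeks after weaning and before mating. Their mates were reared on the control diet, and the OID sons ate the control diet (CO). The remaining libraries came from 3 fathers fed the control diet (CO F0) and from 4 sons of control lineage (CO F1). Each library was made from caudal epididymal sperm of 1 male, and fragments of 30 to 45 nucleotides were taken. Fathers and sons of the OID lineage differed in generation and in the diet they ate themselves, and these cannot be told apart in these 8 libraries. Whether males with the same number were father and son was not given in the sources used here, nor was the age of the sons at collection.

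A tRF is a piece of a transfer RNA, cut most often near the anticodon by ribonucleases such as angiogenin. Mature sperm carry many tRFs, and much of this cargo is gained in the epididymis from vesicles shed by its epithelium. Fragments of glycine and glutamate tRNAs are the best known of them, and sperm tRFs have been studied as carriers of paternal diet. A tRF is named here by its tRNA, so ValCAC means any fragment of a valine tRNA whose anticodon is CAC. The table does not say from which end of the tRNA a fragment came.

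NCBI RefSeq on GRCm38.p6 placed at least 1 tRNA locus for 46 of the 47 tRFs, the exception being SeCTCA. Most tRFs stand for several loci, with 16 for AspGTC, 11 for ValCAC, 10 for GlnCTG, 8 for ValAAC, 5 for ArgTCG, 3 for ArgCCG, 3 for ValTAC and 2 for LysTTT. Sequences could be read only where a locus lay within a promoter sequence or a miRNA hairpin of RefSeq, and 3 such loci are shown. Each is written 5′ to 3′ with the anticodon in capitals. Among the tRFs lower in sons, ValCAC differed most between fathers and sons. ArgTCG had a lower mean in OID than in CO males of both generations, and IleTAT has a single locus.
ValCAC, locus n-TVcac9: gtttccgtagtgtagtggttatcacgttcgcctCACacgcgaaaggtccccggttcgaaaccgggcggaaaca
ArgTCG, locus n-TRtcg5: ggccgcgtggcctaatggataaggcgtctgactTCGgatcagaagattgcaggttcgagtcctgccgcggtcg
IleTAT, locus n-TItat14: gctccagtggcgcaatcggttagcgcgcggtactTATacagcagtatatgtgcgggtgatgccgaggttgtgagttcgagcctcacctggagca
The ValCAC locus is 73 bases on the minus strand at chr13:23446142-23446214, where GENCODE M21 holds no gene. The ArgTCG locus is 73 bases on the plus strand at chr7:79466419-79466491 and overlaps an exon of Gm10616, a gene model to be checked by experiment. The IleTAT locus is 94 bases on the minus strand at chr13:21896938-21897031, includes an intron of the tRNA, and lies within the hairpin of Mir1983. IleTAT fragments and mir-1983 reads could therefore be divided between entries, although mir-1983 had at most 3 reads in an OID library.

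The deposited values are a signal normalized by the authors. For tRFs they equal reads divided by 1 factor per library, plus 0.5, and miRNA entries had another factor in each library. Depth recovered from them ranged from 295389 to 5363471 tRF reads in OID fathers and from 1684563 to 4924160 in OID sons. The median depth of sons was 2.76 times that of fathers (two-sided exact permutation p = 0.286 on log2 depth, n = 4 and 4). The normalized values of a library summed to 525579 to 1127790 in fathers and to 652098 to 741153 in sons. Replicates 1 and 2 of the OID sons had identical recovered reads for all 164 miRNA entries, of which 68 were above 0, in a total of 275 reads each. This held for 1 of 105 pairs of libraries, and no other pair had more than 118 equal entries. Their tRF reads differed, with ratios between 0.151 and 0.823 across tRFs, so both libraries were kept and results are also given without each. The miRNA marker lists could not check the labelled cell type well, since germ cell markers had 0 to 1 reads in OID fathers and 1 to 3 in OID sons. Markers of smooth muscle and fibroblasts had 1 to 24 reads in fathers and 1 to 13 in sons, those of epithelium 4 to 10 and 5 to 11, and those of blood 0 to 2 and 2 to 3. Their part in the results was not tested.

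The sperm of fathers and sons was dominated by the same pair of tRFs, GlyGCC and GluCTC, the fragments of tRNAs that read GGC and GAG codons. Their joint share was 72.8% ± 4.12 (SD, n = 4) in OID fathers and 74.6% ± 2.62 (SD, n = 4) in OID sons, a difference of 1.76 percentage points (two-sided exact permutation p = 0.457). Within the pair, the balance lay further towards glutamate in sons. The share of GluCTC was 40.7, 36.0, 42.9 and 41.4% in the 4 fathers and 47.8, 43.9, 50.9 and 44.8% in the 4 sons. Every son was above every father, at 40.3% ± 3.0 against 46.9% ± 3.19 (SD, n = 4; exact permutation p = 0.0286, the smallest that 4 against 4 allows, adjusted p = 0.114 over 4 measures of the pair). The share of GlyGCC was 32.5% ± 6.59 in fathers and 27.7% ± 1.43 in sons (exact permutation p = 0.257), and the 2 groups overlapped. The log2 ratio of GlyGCC to GluCTC was -0.33 ± 0.39 in fathers and -0.76 ± 0.15 in sons (exact permutation p = 0.0571). The normalized values themselves gave no such order, with GluCTC at 319006 ± 115047 in fathers and 323085 ± 36907 in sons. Between CO fathers the share of GluCTC ranged more widely, from 24.8% to 57.7%. In the 4 CO sons it was 44.2, 48.1, 44.3 and 45.7%, within the range of the OID sons. Whether the step in this share differed between lineages was not tested. Since a share depends on all other fragments, less RNA of a fragment and more of the others cannot be told apart, nor can fewer cells of a type and less RNA per cell.

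Across the 47 tRFs, no difference between OID fathers and OID sons passed an adjusted p of 0.05 (limma with Benjamini-Hochberg adjustment, lowest adjusted p = 0.249, 0.00% of 47 tested). There were 8 tRFs (17.0% of those tested) with an unadjusted p under 0.05. AspGTC, IleTAT and GlyTCC were higher in sons (6.38%), and ValCAC, ValAAC, PheGAA, GlnCTG and LysTTT were lower (10.6%). By sign alone 23 tRFs were higher and 24 lower, and the median log2 fold change was -0.06. Log2 fold changes ran from -1.12 to 1.52, and 43 tRFs stayed within a log2 fold change of 1 in either direction. The median SE was 0.38. In simulated data sets of this size, 31.2% of the tRFs given a log2 change of 1 passed the adjusted threshold, and 94.8% of those given 2. There tRFs varied independently, with the same SD in fathers and sons, unlike the real libraries, so the rates are a rough guide only. Only PheGAA had groups without overlap (2.13% of tRFs). For a tRF without a difference, full separation of 4 against 4 has an exact permutation probability of 0.0286. The share of tRFs fully apart was thus no higher than chance gives. With log2 library depth as a covariate no tRF had an unadjusted p under 0.05, and in the libraries with at least 1000000 tRF reads, 2 fathers and 4 sons, 1 did (SerGCT). Without replicate 1 of the OID sons the count was 5, and without replicate 2, the other library with the same miRNA reads, it was 2.

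**Figure D1:**
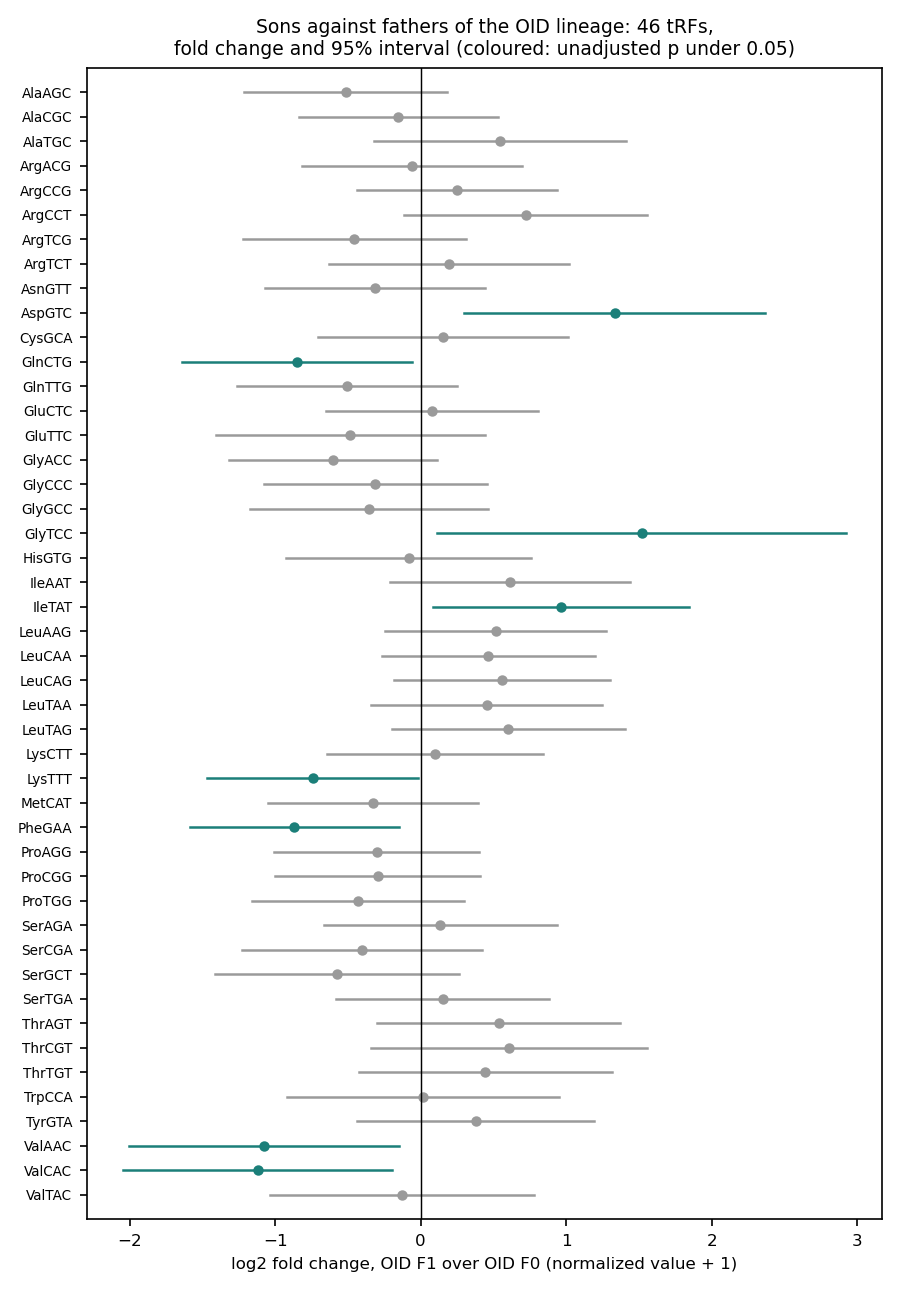
Log2 fold change of OID sons over OID fathers (x axis, on log2 of normalized value + 1) for 46 tRFs ordered by amino acid (y axis). Points are fold changes and lines 95% intervals of the limma fit over 4 fathers and 4 sons. The 8 coloured tRFs had an unadjusted p under 0.05, and none passed after adjustment. SeCTCA is left out because it had 2 reads or fewer in each OID library.

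ValCAC and ValAAC had the lowest log2 fold changes of sons over fathers, and that of the remaining valine tRF, ValTAC, was -0.13. ValCAC, from tRNAs that read GUG codons, had values of 26192, 29485, 10586 and 48240.3 in the 4 fathers and 19539, 10269.6, 12090.3 and 7264 in the 4 sons. Father 3 lay among the sons, and the other fathers lay above all sons. The mean was 2.33 times higher in fathers, at 28626 ± 15458 against 12291 ± 5226 (SD, n = 4; log2 fold change -1.12 with an SE of 0.44, 95% interval -2.04 to -0.20, limma unadjusted p = 0.0201, adjusted p = 0.249; two-sided exact permutation p = 0.0857).
ValAAC, which reads GUU and GUC after its first anticodon base is turned to inosine, had 12605, 16825, 5706 and 27159 in fathers and 10829, 5047, 6765 and 4514 in sons. Its order of libraries was like that of ValCAC, with father 3 again within the range of the sons. The mean was 2.29 times higher in fathers (log2 fold change -1.07 with an SE of 0.44, 95% interval -2.003 to -0.15, limma unadjusted p = 0.0256, adjusted p = 0.249; two-sided exact permutation p = 0.114). The ratio of ValAAC to ValCAC stayed between 0.481 and 0.621 in all 8 OID libraries, so the values of the 2 tRFs went up and down together. The authors weighted reads shared between tRNAs, so the 2 may not be separate observations. The part of shared reads in this was not tested.
ValTAC, which reads GUA, had 3552, 3919, 6397 and 5488 in fathers and 3012, 3941, 2553 and 11311 in sons. The highest and the lowest of these 8 values were both from sons (log2 fold change -0.13 with an SE of 0.43, 95% interval -1.03 to 0.78, limma unadjusted p = 0.770, adjusted p = 0.850; two-sided exact permutation p = 0.829). All 3 valine tRFs together made up 6.02% ± 1.55 of the values in fathers and 3.51% ± 0.716 in sons (SD, n = 4; exact permutation p = 0.0571, adjusted p = 0.400 over 21 amino acid groups). The difference between ValCAC and ValTAC, as the log2 of their ratio, was -0.99 in sons minus fathers (exact permutation p = 0.314). A difference in behaviour between ValCAC and ValTAC was therefore not shown, and ValTAC turned to higher in sons when values were scaled to the library sum (0.0126).
Without father 3, whose values lay with the sons, ValCAC and ValAAC had an adjusted p of 0.0424 each, and 13 tRFs had an unadjusted p under 0.05. Without father 4, the highest in both, 2 tRFs did. With depth as a covariate the log2 fold changes were -0.72 for ValCAC and -0.61 for ValAAC, and in the libraries with at least 1000000 tRF reads they were -0.53 and -0.41.

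GlnCTG and LysTTT were lower in sons as well. GlnCTG, which reads CAG codons, had 2688, 3331, 1572 and 4292 in fathers and 1410.1, 1479, 2312 and 1193 in sons. Of the fathers 3 were above all sons, and father 3 again lay within their range. The mean was 1.86 times higher in fathers, at 2971 ± 1142 against 1598 ± 491 (SD, n = 4; log2 fold change -0.85 with an SE of 0.38, 95% interval -1.64 to -0.06, limma unadjusted p = 0.0370, adjusted p = 0.249; two-sided exact permutation p = 0.0571).
LysTTT, which reads AAA codons, had 7603, 7422, 8297 and 12471 in fathers and 4447, 4580.1, 7721 and 4738 in sons. Son 3 was the only one of its group within the range of the fathers. The mean was 1.67 times higher in fathers (log2 fold change -0.74 with an SE of 0.35, 95% interval -1.47 to -0.02, limma unadjusted p = 0.0451, adjusted p = 0.265; two-sided exact permutation p = 0.0857).
The other glutamine and lysine tRFs gave smaller differences, -0.50 for GlnTTG and 0.10 for LysCTT on the log2 scale, and neither had an unadjusted p under 0.05. The log2 ratio of LysTTT to LysCTT was -0.84 in sons minus fathers (exact permutation p = 0.0571) and that of GlnCTG to GlnTTG was -0.34 (exact permutation p = 0.0571). These ratios were chosen after the values were seen.

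PheGAA, which reads UUC and UUU codons, was the tRF whose groups were fully apart. Its values were 54.3, 123, 84.4 and 85.2 in fathers and 45.8, 45.9, 41.2 and 48.4 in sons. All sons lay below all fathers and close together, with father 1 nearest to them. The mean was 1.92 times higher in fathers, at 86.8 ± 28.4 against 45.3 ± 3.01 (SD, n = 4; log2 fold change -0.87 with an SE of 0.34, 95% interval -1.59 to -0.15, limma unadjusted p = 0.0206, adjusted p = 0.249; two-sided exact permutation p = 0.0286). It was among the rarest tRFs, and in the CO lineage it had 66.7, 80.6 and 241 in fathers and 51.7, 75.6, 75.6 and 78.4 in sons. The 241 of CO father 3 came from 5 reads, and the 75.6 of CO son 2 from 4 reads. The difference between generations was -0.65 in the CO lineage, with an SE of 0.48, and the 2 differences did not pass a test of their difference (interaction -0.22, SE 0.56, limma unadjusted p = 0.696).

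Of the tRFs higher in sons, AspGTC had the lowest p and the largest ratio of means, and GlyTCC the largest fitted log2 fold change, which was the smallest of the 3 with depth as a covariate. AspGTC, which reads GAC and GAU codons, had 5641, 1160.5, 5303 and 5694 in fathers and 8192, 11653, 5128 and 16326 in sons. Father 2 was far below the other fathers, which were close to each other, and son 3 was the only son below them. The mean was 2.32 times higher in sons, at 10325 ± 4808 against 4449.6 ± 2199.6 (SD, n = 4; log2 fold change 1.33 with an SE of 0.49, 95% interval 0.30 to 2.37, limma unadjusted p = 0.0142, adjusted p = 0.249; two-sided exact permutation p = 0.114).
GlyTCC, which reads GGA codons, had 17048, 924, 15654 and 3441 in fathers and 9284, 16237, 15992 and 23793 in sons. The 2 fathers of lowest depth, 2 and 4, had the lowest values, and fathers 1 and 3 lay within the range of the sons. The mean was 1.76 times higher in sons (log2 fold change 1.52 with an SE of 0.67, 95% interval 0.12 to 2.92, limma unadjusted p = 0.0354, adjusted p = 0.249; two-sided exact permutation p = 0.257).
IleTAT, which reads AUA codons, had 183, 50.4, 131 and 95.8 in fathers and 213, 226, 115 and 309 in sons. Its lowest values were again those of fathers 2 and 4, and the mean was 1.88 times higher in sons (log2 fold change 0.97 with an SE of 0.42, 95% interval 0.08 to 1.85, limma unadjusted p = 0.0334, adjusted p = 0.249; two-sided exact permutation p = 0.0857).
As a description over 8 libraries of 2 groups, the slopes on library depth within groups were 0.46 for AspGTC, 0.95 for GlyTCC, 0.41 for IleTAT, -0.28 for ValCAC and -0.33 for ValAAC on the log2 scale per doubling of depth. With depth as a covariate, the log2 fold changes were 0.68, 0.16 and 0.38 in that order. In the libraries with at least 1000000 tRF reads they were 0.79, -0.08 and 0.39.

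**Figure D2:**
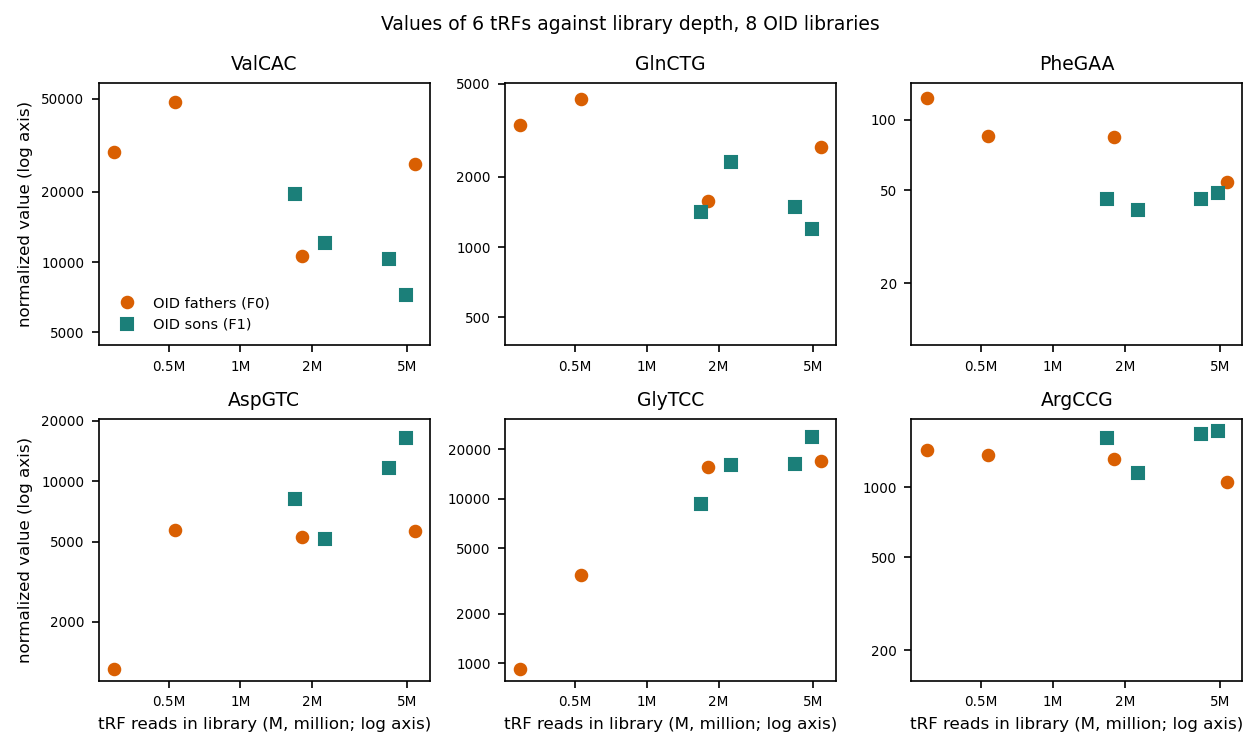
Normalized values (y axis, log) of 6 tRFs against the tRF reads of each library (x axis, log), circles for the 4 OID fathers and squares for the 4 OID sons. Fathers 2 and 4 are the 2 libraries under 1000000 reads, and in AspGTC and GlyTCC father 2 is the lowest point at 1160 and 924. The squares of PheGAA lie between 41.2 and 48.4, below all circles.

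The 10 tRFs with an unadjusted p under 0.05 between OID fathers and CO fathers were then followed in sons (21.3% of 47 tested, 6 higher and 4 lower in OID). None of them passed adjustment (limma, lowest adjusted p = 0.0733). OID fathers enter that comparison and the comparison of fathers with sons, so the 2 are not independent. The 10 were chosen for the distance of OID fathers from CO fathers. This choice by itself favours sons that lie nearer to CO, and so further from OID fathers. Both the direction and the count below, set against that of other tRFs, are therefore a description only. Sons differed from fathers at an unadjusted p under 0.05 in 5 of the 10, against 8 of all 47 (17.0%) and 3 of the 37 not on the list, and in each of the 5 they lay on the side of the CO males. These were LysTTT, ValAAC, GlnCTG, ValCAC and AspGTC. In the other 5, ValTAC, ArgCCG, SerCGA, ArgTCG and LeuCAG, the difference between fathers and sons had a larger p. Which tRFs made up the 5 depended on scaling and on single libraries. Under median of ratios scaling AspGTC, ValAAC and ValCAC were left, as with the replicate number as a block, and on shares of summed values GlnCTG, ValAAC and ValCAC were. Rescaled without GlyGCC and GluCTC, AspGTC was left and LeuCAG entered. LysTTT and ValCAC were left without OID father 2, and AspGTC alone without OID father 4 or without OID son 4. Without son 1 there were 3, AspGTC, ValAAC and ValCAC, and without son 2 none of the 5 had an unadjusted p under 0.05. With depth as a covariate, or in the libraries with at least 1000000 tRF reads, the count was 0. The list of 10 was refitted only with 1 father left out or with depth as a covariate, and not under the other scalings. On this list 6 to 10 tRFs kept an unadjusted p under 0.05 when 1 father was left out, and 7 with depth as a covariate. ArgCCG, GlnCTG, LysTTT, ValAAC and ValTAC kept it each time. Other tRFs entered as well. With depth as a covariate 12 were called, and CysGCA, GlyCCC, GlyGCC, IleTAT and ThrAGT were the new ones. SeCTCA, GlnTTG, GlyACC, LeuCAA, SerAGA and ArgACG entered in some of the fits with 1 father left out. CO libraries were shallower, from 17966 reads in a CO father to 2675346 in a CO son.

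Among the 5 that lay closer to CO in sons, LysTTT had the smallest remaining difference, with log2 fold changes of 1.15 (SE 0.29) between OID and CO fathers and -0.04 (SE 0.32) between OID and CO sons. CO males had 3563, 4533 and 3807 as fathers and 3587, 8088, 6015 and 4825 as sons, and OID sons lay within the range of CO sons. For ValAAC the values were 2.01 (SE 0.54) between OID and CO fathers and 0.41 (SE 0.42) between OID and CO sons, and for ValCAC they were 1.74 (SE 0.57) between OID and CO fathers and 0.31 (SE 0.42) between OID and CO sons. ValCAC stood at 8291, 4291 and 11804 in CO fathers and 9469.7, 14393, 12126 and 4509.6 in CO sons. GlnCTG kept a smaller difference, at 1.31 (SE 0.38) between OID and CO fathers and 0.50 (SE 0.28) between OID and CO sons. For it OID sons averaged 1598 ± 491 and CO sons 1103 ± 152 (SD, n = 4), and the unadjusted p between them was 0.101 by limma. AspGTC also lay between the 2 levels, at -1.57 (SE 0.65) between OID and CO fathers and -0.76 (SE 0.43) between OID and CO sons. None of the 5 had an unadjusted p under 0.05 between OID and CO sons.

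**Figure D3:**
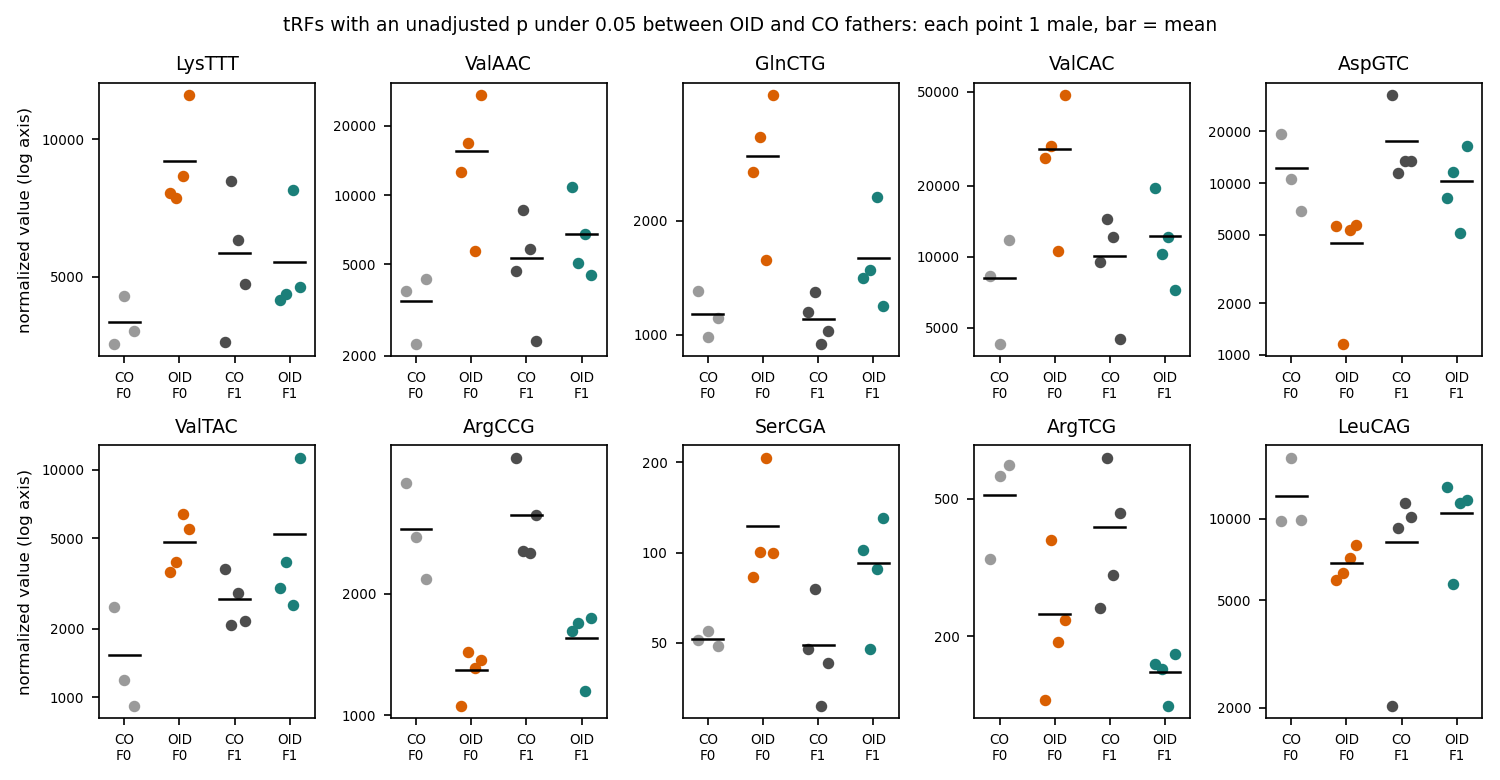
Normalized values (y axis, log) of the 10 tRFs that had an unadjusted p under 0.05 between OID and CO fathers, with each point 1 male and bars at group means. The upper row holds the 5 that also differed between OID fathers and OID sons at that threshold. ArgCCG and ArgTCG stand lower in both OID groups than in both CO groups by their means.

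ArgCCG and ArgTCG, fragments of arginine tRNAs that read CGG and CGA codons, had lower means in OID than in CO males of both generations. The difference between fathers was steadier for ArgCCG. ArgCCG had an unadjusted p under 0.05 between OID and CO fathers in all 8 alternatives, and ArgTCG lost it in 5 of them. These were depth as a covariate and leaving out CO father 2, CO father 3, OID father 1 or OID father 3. ArgCCG had 1055, 1436, 1312 and 1366 in OID fathers and 1620.4, 1691, 1147 and 1739 in OID sons. CO males had 3757, 2767 and 2169 as fathers and 4339, 2553, 2517 and 3136 as sons, all above all OID males. The log2 fold changes were -1.14 (SE 0.29) between OID and CO fathers and -0.999 (SE 0.28) between OID and CO sons. Sons differed from fathers by only 0.25 (SE 0.33, 95% interval -0.43 to 0.94, limma unadjusted p = 0.451; two-sided exact permutation p = 0.200). A return by the whole of the difference in fathers lay outside this interval, the error of that difference not counted. The difference between OID and CO sons was fitted in the main setting only, without depth as a covariate and with no library left out. Median depth was 3221590 tRF reads in OID sons and 680742 in CO sons.
ArgTCG had 131, 379, 193 and 223 in OID fathers and 166, 161, 126 and 178 in OID sons. OID sons lay at the low end of the OID fathers' range, with son 3 under it, and all OID sons were below every CO male. CO males had 335, 582 and 627 as fathers and 242, 657, 300 and 456 as sons. OID father 2, at 379, was above CO father 1 and CO sons 1 and 3, so OID and CO fathers overlapped. The log2 fold changes were -1.20 (SE 0.42) between OID and CO fathers and -1.29 (SE 0.34) between OID and CO sons. Sons differed from fathers by -0.45, away from the CO level (95% interval -1.22 to 0.31, limma unadjusted p = 0.230).
The other arginine tRFs had log2 fold changes of sons over fathers of 0.72 for ArgCCT, 0.19 for ArgTCT and -0.06 for ArgACG. None of these 3 had an unadjusted p under 0.05.

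SerCGA, ValTAC and LeuCAG were less clear. SerCGA, which reads UCG codons, had 83.1, 100.2, 207 and 100.01 in OID fathers and 102, 47.6, 88.4 and 131 in OID sons. Its log2 fold changes were 1.14 (SE 0.36) between OID and CO fathers and 0.87 (SE 0.37) between OID and CO sons, higher in OID both times. SerCGA counts were low in the shallow CO libraries, with 1 read in CO father 3 and 4 in CO son 2. The interval of sons over fathers, -1.23 to 0.42, held no difference as well as a full return.
For ValTAC the log2 fold changes were 1.75 (SE 0.42) between OID and CO fathers and 0.72 (SE 0.44) between OID and CO sons. CO males had 2493, 1186 and 916 as fathers and 3652, 2083, 2869 and 2162 as sons. The smaller distance in sons thus went with higher values in CO sons than in CO fathers (log2 fold change 0.91, SE 0.45), while OID sons differed from OID fathers by -0.13.
LeuCAG, which reads CUG codons, had 5925, 6322, 7196 and 7983 in OID fathers and 13115, 5726, 11446 and 11794 in OID sons. Son 2 was the lowest of all 8 and the other sons were above every father (log2 fold change 0.56 with an SE of 0.35, 95% interval -0.18 to 1.30, limma unadjusted p = 0.131, adjusted p = 0.450; two-sided exact permutation p = 0.143). The log2 fold changes were -0.79 (SE 0.30) between OID and CO fathers and 0.55 (SE 0.53) between OID and CO sons, so that the sign turned, and CO sons had 2029.8, 9252, 11464 and 10176.

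**Figure D4:**
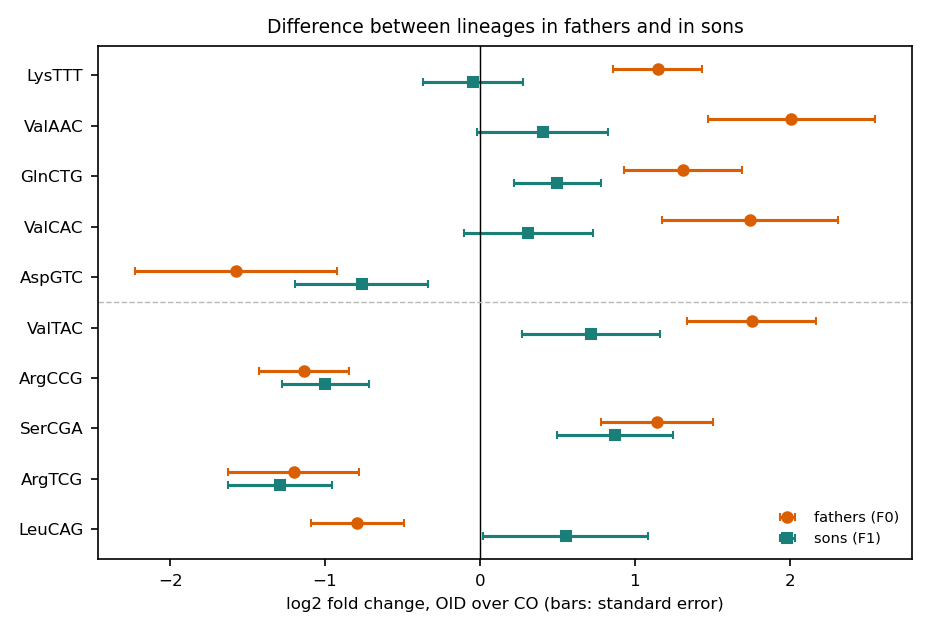
Log2 fold change of OID over CO males (x axis) in fathers (circles) and in sons (squares) for the same 10 tRFs, with standard errors of the limma fits. Above the dashed line are the 5 tRFs in which OID sons differed from OID fathers at an unadjusted p under 0.05. In ArgCCG and ArgTCG both symbols lie near -1 or below.

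The step from fathers to sons was set beside the same step in the CO lineage, where both generations ate the control diet. In the CO lineage 1 tRF, SeCTCA, had an unadjusted p under 0.05 and the lowest adjusted p was 0.807 (limma). A test of whether the step differed between lineages called 2 tRFs at an unadjusted p under 0.05 (4.26% of 47) and none after adjustment (lowest adjusted p = 0.657). Both were among the tRFs above. LysTTT differed by -0.74 in the OID lineage and 0.45 in the CO lineage (interaction -1.19, SE 0.48, limma unadjusted p = 0.0230). ValAAC differed by -1.07 and 0.53 (interaction -1.60, SE 0.70, limma unadjusted p = 0.0335). For ValCAC the values were -1.12 and 0.31 (interaction -1.43, SE 0.71, limma unadjusted p = 0.0586). AspGTC was higher in sons of both lineages, by 1.33 and 0.52 (interaction 0.81, SE 0.77), and so was GlyTCC, by 1.52 and 0.79 (interaction 0.73, SE 1.03). IleTAT likewise had 0.97 and 0.63 (interaction 0.33, SE 0.61). A step particular to the OID lineage was not shown for any tRF after adjustment. Without father 4 of the OID lineage no tRF had an unadjusted interaction p under 0.05, and without father 3 there were 4. There were also 4 without replicate 3 of the CO fathers and without replicate 4 of the CO sons. SeCTCA had at most 3 reads in any library and gets no fold change.

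OID sons differed from CO sons at an unadjusted p under 0.05 in 8 tRFs (17.0% of 47, limma, lowest adjusted p = 0.108). Besides ArgCCG, ArgTCG and SerCGA these were AlaAGC, GlnTTG, GlyTCC, LysCTT and PheGAA. No alternative was fitted for this comparison, in which OID sons had deeper libraries than CO sons by the median. In OID sons against OID fathers, AlaAGC had a log2 fold change of -0.52 and values of 3088, 3544, 2218 and 2615 in fathers and 2326, 2312, 1643 and 1717 in sons. Against CO males the difference of AlaAGC was -0.07 in fathers and -0.75 in sons. LysCTT was nearly level across the OID generations at 0.10, with 14738, 14239, 26341 and 11125 in fathers and 14622, 15140, 21487 and 17129 in sons.

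The remaining tRFs are described by amino acid. All 5 leucine tRFs were higher in sons, with log2 fold changes from 0.45 for LeuTAA to 0.60 for LeuTAG, and none had an unadjusted p under 0.05. All 5 were higher under every scaling tried as well, and 4 of 5 with the replicate number and depth both in the fit. Leucine fragments together took 1.45% ± 0.667 of the values in fathers and 2.21% ± 0.510 in sons (SD, n = 4; exact permutation p = 0.200). LeuTAG had 1043, 918, 1679 and 521 in fathers and 1166, 1381, 1370.3 and 2023 in sons, with father 3 inside the range of the sons. All 3 threonine tRFs were higher in sons too, by 0.44 for ThrTGT, 0.54 for ThrAGT and 0.61 for ThrCGT, but 2 of 3 were with depth as a covariate and 1 of 3 in the libraries with at least 1000000 tRF reads. IleAAT had 0.61. IleAAT had 568, 273, 745 and 293 in fathers and 595, 592, 520.1 and 1016 in sons, and its low values were those of fathers 2 and 4. All 3 proline tRFs were lower in sons, between -0.43 for ProTGG and -0.30 for ProCGG. Since the authors weighted reads shared between tRNAs, tRFs of the same amino acid may not be separate observations, which was not tested. Beside GluCTC and GlyGCC, GluTTC had -0.48, GlyCCC -0.31 and GlyACC -0.60 on the log2 scale.
Alanine tRFs went both ways, at 0.55 for AlaTGC and -0.15 for AlaCGC, as did those of serine, at -0.58 for SerGCT, 0.14 for SerAGA and 0.15 for SerTGA. Among amino acids with 1 tRF, the log2 fold change was -0.31 for AsnGTT, 0.16 for CysGCA, -0.08 for HisGTG, -0.33 for MetCAT, 0.02 for TrpCCA and 0.38 for TyrGTA. Counts were below 10 reads in at least 1 OID library for GlyACC, LeuTAA and SeCTCA. In CO libraries more tRFs had counts this low, PheGAA and SerCGA among them. SeCTCA, the selenocysteine tRNA, had no read in father 4, which allows a share of up to 0.000563% in that library (counting error only).
The share of each amino acid in the summed values was also compared over 21 amino acid groups. Glutamate made up 44.9% ± 2.16 in fathers and 50.6% ± 2.04 in sons without overlap, and phenylalanine was the other group with an exact permutation p of 0.0286. The lowest adjusted p over the 21 groups was 0.300. The 4 tRFs whose GTN anticodons can carry queuosine, a base made from a dietary and bacterial precursor, did not go 1 way, with AspGTC and TyrGTA higher, AsnGTT and HisGTG lower and a median of 0.15. Of the 9 tRFs with an anticodon that begins with A, 4 were higher and 5 lower with a median of -0.06, and ValAAC was the 1 with an unadjusted p under 0.05. The median over all 47 tRFs was -0.06.

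Fathers also varied more from male to male than sons in most tRFs. The SD of log2 values was larger in OID fathers for 34 tRFs and in OID sons for 13, with medians of 0.60 and 0.43. The widest example was GlyTCC, with an SD of 2.001 in fathers and 0.56 in sons, and PheGAA was among the tightest in sons at 0.0955. ValTAC and LeuCAG went the other way, at 0.40 and 0.19 in fathers and 0.96 and 0.55 in sons. tRFs of 1 library share its scaling and depth, so these counts are a description. The depth of fathers spanned a wider range than that of sons, and its part in this spread was not tested.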

How the data were processed

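Small RNA-seq values of caudal epididymal sperm were taken for 8 OID libraries, with 7 CO libraries as the background. Per the study's methods and the labels, the authors trimmed reads, aligned them to GRCm38 and weighted reads shared between tRNAs. The submitters' processing notes also name Bowtie2 2.3.4.1 and DESeq2. The deposited values are a normalized signal. For tRFs they equal reads divided by 1 factor per library, plus 0.5. The miRNA entries have another factor, so values were compared only among tRFs. Reads were recovered as whole multiples for all 705 tRF values (100%, tolerance 0.001 reads), and the search was tested on 300 simulated libraries. By the study's methods the authors went on with weighted reads, so the recovered numbers may differ from the numbers of sequenced reads. Reads are not independent molecules, so limits cover counting error only.

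Groups came from the labels, which do not say that libraries of a group are from separate litters or dates, so p-values measure the spread between these males. Fits used limma 3.58.1 (R 4.3.3, lmFit and eBayes) on log2 of the value + 1 with only the pair of groups in question entered, and p-values were adjusted over 47 tRFs by Benjamini-Hochberg. A fold change on this scale understates changes of low tRFs. The interaction used all 15 libraries. Single values were compared by two-sided exact permutation tests (scipy 1.17.1). In 50 simulated data sets, 10 of 47 tRFs were changed, and 0.14 unchanged tRFs per set were called at a change of 1. Named tRFs were GlyGCC, GluCTC, the 12 with the lowest unadjusted p among tRFs with at least 10 reads in every OID library, those with an unadjusted p under 0.05 between OID and CO fathers, and 5 that the study's text names (ValTAC, SerCGA, ArgCCG, ArgTCG and SeCTCA), 19 in all. Values of others are given to account for all 47 and were chosen after they were seen. Members and lists were chosen with earlier results of these data known. Alternatives were other pseudocounts (0.1 and 10), filters, scalings, an intensity trend, limma-voom on recovered reads, depth as a covariate, the replicate number as a block, and each library left out. Added after seeing the data were the block with depth, libraries of at least 1000000 tRF reads, counts at an unadjusted p, the list of diet-linked tRFs with fathers left out, and ratios within an amino acid. Figures used Python 3.11.15 and matplotlib 3.10.9. tRNA loci and sequences are from RefSeq (GRCm38.p6), and overlaps from GENCODE M21.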

Additional observations from a re-analysis of the deposited data

Results flagged for a closer look

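On the log2 scale, in 4 of 40 groups of values, 1 library stood far from the other 3 of its group, and chance alone gives about 2. The gap of AspGTC in OID F0 replicate 2, at 1160.5, to the nearest father was 0.955 of the range of its group in log2 values. LysTTT in OID F1 replicate 3, at 7721, had a gap of 0.885 in log2 values. LeuCAG in OID F1 replicate 2, at 5726, had 0.836, and ArgCCG in OID F1 replicate 3, at 1147, had 0.830.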

How the results depend on the processing

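No alternative to the comparison of OID sons with OID fathers called a tRF after adjustment, except leaving out 1 library (0 to 2 calls, the 2 being ValAAC and ValCAC without OID F0 replicate 3). The 8 tRFs at an unadjusted p became 4 on shares of summed values (0 higher, 4 lower), 5 rescaled without GlyGCC and GluCTC (4 higher, 1 lower), 4 with limma-voom, 0 with depth as a covariate, 0 with the replicate block and depth, 1 in libraries of at least 1000000 tRF reads, and 2 to 13 with 1 library left out. Those that moved the count by over 1.5 times were OID F0 replicates 2 (4), 3 (13) and 4 (2) and OID F1 replicates 1 (5), 2 (2) and 4 (2). Median of ratios scaling gave 3 higher and 3 lower. These scalings moved the median log2 fold change of all tRFs from -0.06 to between 0.02 and 0.17. The interaction gave 2 tRFs at an unadjusted p, 4 with depth as a covariate and 0 to 4 with 1 library left out, and 0 after adjustment in each. Of 413 single-tRF alternatives 401 kept the direction. GlyGCC turned to 0.13 with depth as a covariate, 0.0803 with the replicate block and depth, and 0.35 in the deep libraries. GlyTCC turned to -0.0781 in the deep libraries. ValTAC turned to 0.0126 on shares, 0.10 rescaled and 0.10 with limma-voom. With 1 library left out, GluCTC ranged from -0.0638 to 0.29 and ValTAC from -0.59 to 0.12, and the causes were not tested. The share of GlyGCC and GluCTC differed by 0.508 to 3.16 percentage points and their log2 ratio by -0.56 to -0.26. Numbers were not taken as pairs, since the sources do not give them as such. Same-numbered fathers and sons had correlations of deviations of -0.43, 0.00, -0.16 and -0.48, and 0 of 4 sons correlated best with its own number. With so few males this cannot show whether numbers are pairs. With the replicate block 5 tRFs had an unadjusted p under 0.05 and 0 passed adjustment. A block cannot change the mean difference in a balanced design, so the share and ratio differences are 1.76 and -0.43 by construction. The planned edgeR and DESeq2 count models were not run, since a full deposited column mixes entries of different scaling. The recovered tRF reads were fitted as counts by limma-voom only.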
